A study of Homo sapiens with 2 samples.

Results

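Homologous recombination copies the sequence of an intact sister DNA molecule into a DNA break, and the 9 genes described here encode RAD51AP1 and 8 proteins of the same pathway: RAD51C, RAD54L, BRCA1, BRCA2, PALB2, BARD1, BRIP1 and XRCC2. They were taken by symbol from a table of 19362 genes, all 9 were found, and all 9 passed a filter of a mean of at least 1 CPM (reads scaled to a common library size), as did 14815 genes in all. The set was chosen by pathway around RAD51AP1 with the folds between the 2 groups compared below in view, so the values of that comparison are a description and carry no test. The cells were FTC-133, an established line from a human follicular thyroid carcinoma. The study asked what changes in the transcriptome when CHI3L1, the gene of the secreted glycoprotein YKL-40, is silenced. There were 2 groups, cells that received a control siRNA and cells that received siRNA against CHI3L1, with 1 library each, called the control library and the knockdown library below. No difference therefore has a replicate check, and each statement compares these 2 libraries and not the conditions.

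In this pathway the broken end is first trimmed to leave a tail of unpaired DNA. BRCA1, with its partner BARD1, acts at that step and, through PALB2, brings in BRCA2, which prepares the tail for pairing. RAD51C and XRCC2 belong to a family of related proteins that act on the tail with BRCA2, and RAD54L and RAD51AP1 act when the tail invades the matching duplex. BRIP1 is a DNA helicase that binds BRCA1. Transcripts of many of these genes are most abundant in the S and G2 phases of the cell cycle, when a sister copy exists.

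The largest difference among the 9 genes was in RAD51AP1, which stood at 74.6 CPM in the control library and 12.6 CPM in the knockdown library. RAD51C stood at 61.2 and 23.6 CPM. These were the 2 members at least 1.5-fold lower, and 0 were at least 1.5-fold higher. The other 7, BRCA1 and BRCA2 among them, lay between log2 folds of −0.48 and 0.54. Over the whole table of tested genes, 13.4% passed 1.5-fold downward and 7.73% upward. At 2-fold the same 2 members were lower and 0 higher, beside 4.41% and 1.03% of the table. The log2 fold is taken after adding 1 CPM to both values.

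Promoters are shown for the 2 members that were lower, RAD51AP1 and RAD51C, and for XRCC2 and BRIP1, which had smaller differences. XRCC2 shares a motif with each of the lower 2, and BRIP1 shares motifs with RAD51AP1. Other members that share a motif with RAD51AP1 are not shown. Each run goes from 250 bases before the start of transcription to 30 after it, 5′ to 3′ on the strand of the gene, from RefSeq on GRCh38.p14. Capitals mark matches on either strand to GGCGGGAA, a core of E2F sites, to TTTGAA, the cell cycle homology region (CHR), to TGACGTCA, the cyclic AMP response element (CRE), or to CCAAT. No matches overlapped in the 4 runs. RAD51AP1 lies at chr12:4538640-4538919 (+ strand), RAD51C at chr17:58692323-58692602 (+ strand), XRCC2 at chr7:152676112-152676391 (− strand) and BRIP1 at chr17:61863499-61863778 (− strand).
RAD51AP1: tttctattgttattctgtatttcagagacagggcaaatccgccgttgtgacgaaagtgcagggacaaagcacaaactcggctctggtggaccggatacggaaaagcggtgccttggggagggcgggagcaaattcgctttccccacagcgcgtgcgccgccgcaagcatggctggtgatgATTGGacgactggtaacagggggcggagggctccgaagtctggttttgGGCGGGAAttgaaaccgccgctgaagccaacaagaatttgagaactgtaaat
RAD51C: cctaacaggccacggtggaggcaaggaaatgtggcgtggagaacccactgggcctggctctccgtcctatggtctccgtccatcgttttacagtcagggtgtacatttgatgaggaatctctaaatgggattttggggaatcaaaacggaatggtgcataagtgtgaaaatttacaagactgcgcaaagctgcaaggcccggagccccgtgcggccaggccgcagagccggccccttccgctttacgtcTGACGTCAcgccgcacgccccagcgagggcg
XRCC2: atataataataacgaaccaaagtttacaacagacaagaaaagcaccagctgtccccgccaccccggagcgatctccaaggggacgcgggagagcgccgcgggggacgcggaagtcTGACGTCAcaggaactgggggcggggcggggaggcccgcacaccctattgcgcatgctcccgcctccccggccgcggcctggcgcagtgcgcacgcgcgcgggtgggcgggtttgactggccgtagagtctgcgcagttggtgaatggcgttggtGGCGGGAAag
BRIP1: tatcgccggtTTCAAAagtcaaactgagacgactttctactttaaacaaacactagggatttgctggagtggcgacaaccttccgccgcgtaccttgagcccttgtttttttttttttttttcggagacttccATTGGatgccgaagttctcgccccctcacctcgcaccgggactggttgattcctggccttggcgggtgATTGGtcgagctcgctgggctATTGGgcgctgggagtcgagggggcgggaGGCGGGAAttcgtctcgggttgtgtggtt

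The RAD51AP1 window held the E2F core at position −22 from the start and a CCAAT box at −70. The RAD51C window held neither, and had a CRE that begins 1 base before the start. Over the 9 members, the E2F core was found in 4 (RAD51AP1, RAD54L, BRIP1 and XRCC2), the CRE in 2 (RAD51C and XRCC2), CCAAT in 5 and the CHR in 1 (BRIP1). Of 35116 RefSeq windows of the same 280 bases, 2.98% held the E2F core, 1.85% the CRE, 33.65% CCAAT and 14.52% the CHR. Members with the E2F core thus ranged from the lowest log2 fold of the set (RAD51AP1, −2.48) to 0.37 (BRIP1). The 657 tested genes with the E2F core had a median log2 fold of 0.02, and 12.48% of them were at least 1.5-fold lower, against 12.97% of the 10402 without it. For the CRE the shares were 13.77% of 414 genes and 12.91% of 10645. These motifs were chosen with some of the sequences in view, and a match is a description of the letters only.

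Of 8 thyroid markers, 6 were in the table and 4 were tested. Of these 4, 0 passed 1.5-fold, beside 13.4% lower and 7.73% higher among all tested genes. The transcription factor gene NKX2-1 stood at 88.6 and 112 CPM and PAX8 at 82.8 and 71.2 CPM, with HHEX at 3.16 and 3.49 CPM and the receptor gene TSHR at 8.73 and 9.23 CPM. The other 2 were near 0, the thyroglobulin gene TG at 0.632 and 0.718 CPM and the lineage factor gene FOXE1 at 0.0633 CPM (1 read) and 0.975 CPM (19 reads). Of 5 epithelial markers, 4 were tested. EPCAM was higher, at 2.02 and 4.0 CPM, 1 of 4 (25%) beside 7.73% of all tested genes. KRT8 was the most abundant, at 51.8 and 55.9 CPM, with KRT18 at 31.6 and 24.7 CPM and CDH1 at 1.08 and 1.59 CPM. KRT19 was near 0 and not tested, at 0.506 and 0.257 CPM. Of 8 immune markers, 2 were in the table and together summed to 1.20 and 0.616 CPM, and 3 of 5 endothelial markers summed to 11.3 and 9.75 CPM, with PECAM1 lower, at 7.34 and 3.80 CPM. The siRNA target CHI3L1 was at 140 CPM in the control library and 48.6 CPM in the knockdown library. The libraries held 15837449 and 19467345 reads, so 1 read is worth 0.0632 and 0.0513 CPM. Intervals below are exact 95% intervals and cover counting error only. Without molecular identifiers, PCR copies count as separate reads.

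RAD51AP1 (ENSG00000111247, chromosome 12, 4538798 to 4560048, + strand) encodes a DNA-binding protein that helps to form the joint between the broken and the intact molecule. It had 1179 reads in the control library and 245 in the knockdown library, a ratio of 0.169 (0.146 to 0.194) or 5.93-fold lower. Its log2 fold of −2.48 was among the 3 lowest of the 14815 tested genes. The others were HMGN5, which encodes a nucleosome-binding protein, at 57.0 and 8.67 CPM, and the collagenase gene MMP1, at 8.85 and 0.769 CPM. The log2 fold of MMP1 was also −2.48, and the order depends on the pseudocount: RAD51AP1 was the third lowest with 0.5 CPM and the 12th lowest with 10 CPM. In bulk RNA, fewer cells with a transcript and less of it per cell cannot be told apart.

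Other genes act at the same step. RAD54L (ENSG00000085999, chromosome 1, 46247688 to 46278473), a motor protein that moves along DNA and drives strand invasion, stood at 11.4 CPM (181 reads) and 12.1 CPM (236 reads). Its ratio of 1.06 had an interval that held 1 (0.868 to 1.29). Its reads are uncertain, since 25.1% of its exon bases are also exon bases of LRRC41 on the opposite strand, which had 1528 reads in the control library, and whether counting used strand is unknown from the sources used here. NUCKS1, which encodes a chromatin protein related to RAD51AP1, stood at 439 and 515 CPM, with a log2 fold of 0.23.

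**Figure D1:**
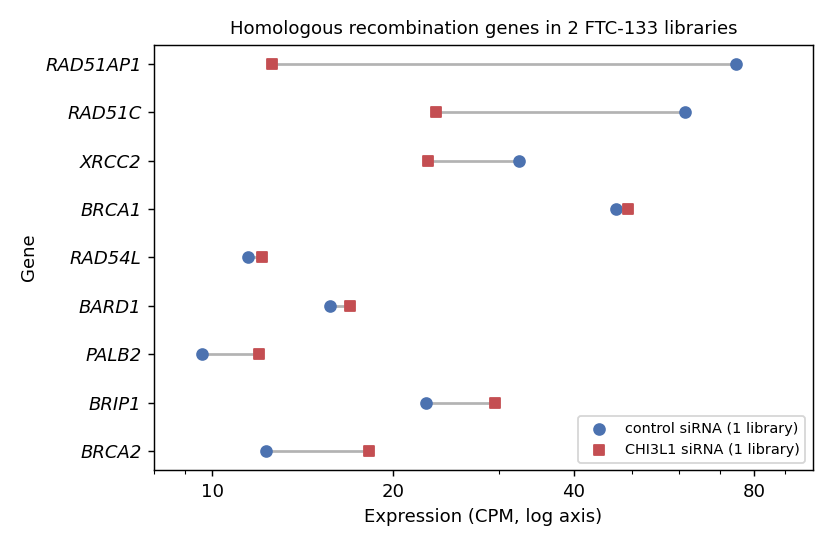
Expression of the 9 genes in CPM on a log axis, with 1 circle for the control library and 1 square for the knockdown library, joined by a line for each gene. The longest lines are those of RAD51AP1 (74.6 to 12.6 CPM) and RAD51C (61.2 to 23.6 CPM), while BRCA1 (47.0 and 49.2 CPM) nearly coincides.

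RAD51C, XRCC2 and their relatives form small complexes with each other, and RAD51C is shared by both of the well-known ones. RAD51C (ENSG00000108384, chromosome 17, 58692573 to 58735611, + strand) had 968 reads in the control library and 460 in the knockdown library, a ratio of 0.385 (0.344 to 0.431). Its log2 fold of −1.34 was the 246th lowest of all tested genes. XRCC2 (ENSG00000196584, chromosome 7, 152644779 to 152676165, − strand) had 512 and 446 reads, or 32.4 and 22.9 CPM. Its ratio of 0.707 (0.621 to 0.804) was below 1 but short of the 1.5-fold rule. XRCC3, which pairs with RAD51C, stood at 26.3 and 18.8 CPM, and RAD51B at 14.0 and 12.3 CPM. RAD51D stood at 16.3 and 21.0 CPM, the sole gene of these with a higher value in the knockdown library. The ratio of RAD51C was the lowest of the 5, and those of XRCC2 and XRCC3 (0.714, 0.618 to 0.823) were nearly the same. RAD51B had a ratio of 0.873 with an interval that held 1 (0.724 to 1.05). Per kilobase, RAD51C had 2.24 times the level of XRCC2 in the control library and 1.22 times in the knockdown library.

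BRCA1 and BARD1 form a ubiquitin ligase whose subunits depend on each other. BRCA1 (ENSG00000012048, chromosome 17, 43044295 to 43170245, − strand) stood at 47.0 CPM (744 reads) and 49.2 CPM (960 reads), a ratio of 1.05 (0.950 to 1.15). BARD1 (ENSG00000138376, chromosome 2, 214725646 to 214809711, − strand) stood at 15.7 CPM (248 reads) and 17.0 CPM (331 reads), a ratio of 1.08 (0.915 to 1.28). Both intervals held 1. Per kilobase the pair stood in a ratio of 2.27 in the control library and 2.19 in the knockdown library. An unnamed long non-coding gene (ENSG00000267002) shares 1.31% of the exon bases of BRCA1 on the same strand and had 120 and 101 reads.

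PALB2 and BRCA2, the bridging and loading factors, and the helicase BRIP1 had higher values in the knockdown library, all short of 1.5-fold. BRCA2 (ENSG00000139618, chromosome 13, 32315474 to 32400266, + strand) stood at 12.3 CPM (194 reads) and 18.3 CPM (356 reads), a ratio of 1.49 (1.25 to 1.78). Its log2 fold of 0.54 was the nearest to the 1.5-fold rule (0.585) among the members outside it, and RAD51C was the nearest inside. BRIP1 (ENSG00000136492, chromosome 17, 61681266 to 61863521, − strand) stood at 22.7 CPM (359 reads) and 29.6 CPM (577 reads), a ratio of 1.30 (1.14 to 1.49). PALB2 (ENSG00000083093, chromosome 16, 23603160 to 23641310, − strand) stood at 9.61 CPM (152 reads) and 12.0 CPM (233 reads), a ratio of 1.24 (1.01 to 1.54). The interval of PALB2 came close to 1.

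**Figure D2:**
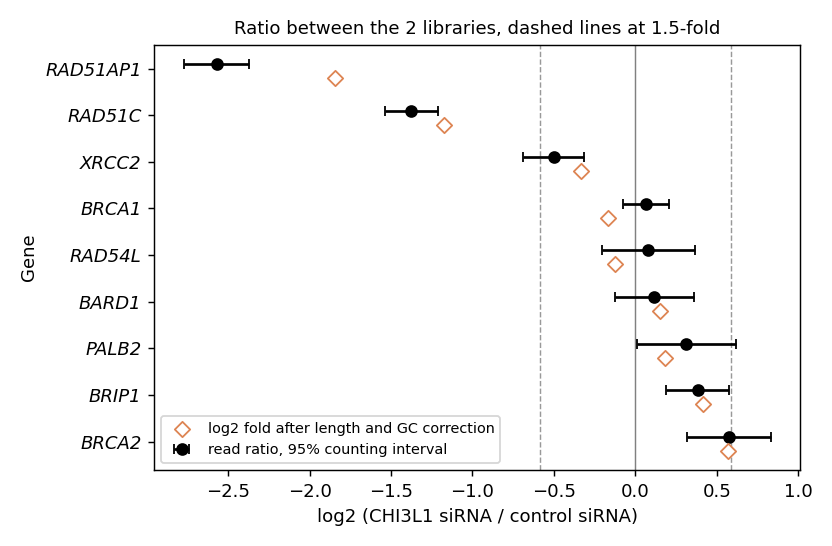
The log2 ratio of the knockdown library over the control library for each gene (circles, from reads, with 95% counting intervals), and the log2 fold after the length and GC correction (diamonds). The intervals of RAD51AP1 and RAD51C lie wholly to the left of the 1.5-fold line, those of BRCA1, RAD54L and BARD1 cross 0, and the diamonds keep RAD51AP1 and RAD51C as the lowest.

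The counting interval of RAD51AP1 and of RAD51C lay wholly beyond 1.5-fold lower, as it did for 8.4% of all tested genes, and 0 members lay wholly above 1.5-fold higher, beside 3.58%. The 9 members together summed to 287 CPM in the control library and 197 CPM in the knockdown library, a ratio of 0.687 (0.658 to 0.718). Of these sums, RAD51AP1 and RAD51C made up 136 and 36.2 CPM and the other 7 members 151 and 161 CPM, a division that follows the folds themselves. RAD51AP1 and RAD51C thus gave 47.3% of all reads of the 9 genes in the control library and 18.3% in the knockdown library.

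Levels of different genes are compared here as CPM per kilobase of 1 annotated transcript per gene. In the control library the order was RAD51AP1 (35.3), RAD51C (23.6), XRCC2 (10.6), BRCA1 (6.47), BRIP1 (3.75), RAD54L (3.68), BARD1 (2.85), PALB2 (2.40) and BRCA2 (1.12). The counting intervals of neighbours in that order overlapped from BRIP1 to PALB2 and nowhere else. In the knockdown library RAD51C came first (9.11), then XRCC2 (7.46), BRCA1 (6.77), RAD51AP1 (5.95) and BRIP1 (4.89). The order of the last 5 was the same in both libraries, with BRCA2 lowest at 1.66. There the intervals overlapped from XRCC2 to BRIP1 and again from RAD54L to PALB2, neighbour by neighbour, and those of RAD51C and BRCA2 stood apart. The highest member was 31.6 times the lowest in the control library and 5.48 times in the knockdown library. Among all coding genes with a length, RAD51AP1 went from percentile 85.2 to 46.2 of the per-kilobase level, and RAD51C from 78.7 to 57.0.

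Folds between these 2 libraries went with transcript length over all coding genes, and the members differ in length. RAD51AP1 (2113 nt, 35.8% GC), RAD51C (2591 nt), XRCC2 (3067 nt) and RAD54L (3108 nt) have transcripts above 2000 and up to 4000 nt. The 4942 tested coding genes of that size had a median log2 fold of 0.03, and 10.1% were at least 1.5-fold lower. RAD51AP1 lies near the lower end of that size range. The 2492 genes above 1000 and up to 2000 nt had a median of −0.24, and 23.35% were lower. PALB2 (4003 nt), BARD1 (5499 nt), BRIP1 (6048 nt), BRCA1 (7270 nt) and BRCA2 (10984 nt) are longer, and the 4627 genes above 4000 nt had a median of 0.25, with 14.4% at least 1.5-fold higher. The log2 folds of these 5 members, from 0.06 to 0.54, lie on both sides of that median. The Spearman correlation between transcript length and log2 fold was 0.82 across the 9 genes and 0.46 across 12660 coding genes. All these genes come from the same 2 libraries and are not independent.

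A smooth trend in transcript length, coding length and GC content was therefore subtracted. After it, RAD51AP1 had a log2 fold of −1.84, the fourth lowest of 12660 genes, and RAD51C of −1.17, the 92nd lowest. The other members had corrected log2 folds of −0.33 (XRCC2), −0.17 (BRCA1), −0.13 (RAD54L), 0.15 (BARD1), 0.18 (PALB2), 0.41 (BRIP1) and 0.57 (BRCA2). By the 1.5-fold rule 2 members were again lower and 0 higher, beside 6.82% lower and 6.61% higher among all corrected genes. BRCA1 and RAD54L changed sign, from values near 0.

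**Figure D3:**
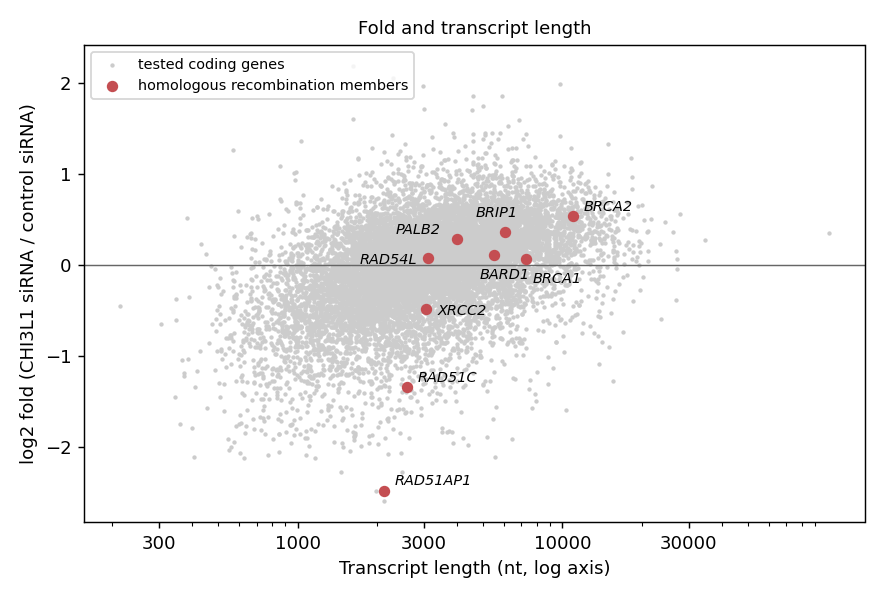
The log2 fold against transcript length (log axis) for tested coding genes (grey points) and the 9 members (red points). RAD51AP1 lies at the lower edge of the cloud for its length, RAD51C is also low, and BRCA2, the longest member at 10984 nt, is at 0.54.

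Neighbouring genes were read out for each member, as the tested gene whose start of transcription is nearest. The gene next to RAD51AP1, C12orf4, starts 419 nt away on the opposite strand and points away from it. C12orf4 was also lower, at 45.8 CPM (724 reads) and 19.1 CPM (372 reads), a ratio of 0.417 (0.367 to 0.473), with a log2 fold of −1.22 and of −1.07 after the correction. RAD51AP1 and RAD51C shared no exon bases with other listed genes. BRCA1 and PALB2 have divergent neighbours at 127 and 82 nt. These were NBR2, a non-coding gene at 2.53 and 2.87 CPM, and DCTN5, a dynactin subunit gene at 59.8 and 65.4 CPM. For the other 6 members the nearest start was at least 44398 nt away. Of these 6 distant neighbours, 2 were also at least 1.5-fold lower. SEPTIN4, 163222 nt from RAD51C, stood at 20.2 and 11.3 CPM, and ACTR3B, 83584 nt from XRCC2, at 14.8 and 9.18 CPM. The remaining 4 did not pass 1.5-fold, so 3 of 9 neighbours were lower, beside 13.4% of all tested genes. The count is small, and a link between position and fold was not tested.

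The rest of the homologous recombination machinery was read from lists of 47 other genes, of which 45 were in the table and all 45 were tested. Of these, 7 (15.6%) were at least 1.5-fold lower and 0 higher, beside 13.4% and 7.73% of all tested genes. Their median log2 fold was −0.08, against 0.01 over all genes and 0.07 over the 9 members. At 2-fold 5 of the 45 (11.1%) were lower, beside 4.41% of all tested genes. After the length and GC correction 6 (13.3%) were lower, beside 6.82%, and 3 of the 45 were higher, beside 6.61%. By the counting interval 6 lay wholly beyond 1.5-fold lower, beside 8.4%.

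Among the proteins that coat the unpaired tail, RPA3, the smallest subunit of replication protein A, went from 284 CPM to 72.2 CPM between the libraries (ratio 0.254, interval 0.239 to 0.270), and shares 3.65% of its exon bases with UMAD1 on the opposite strand. RPA2 stood at 80.4 and 78.0 CPM and RPA1 at 109 and 131 CPM, so the 3 subunits of 1 complex differed in different proportions. After the correction RPA3 had a log2 fold of −1.55. Of 7 end resection genes 0 passed 1.5-fold, beside 13.4% lower and 7.73% higher among all tested genes. The nearest were NBN (115 and 77.8 CPM), of the MRE11 complex, and RBBP8 (78.9 and 54.1 CPM), which encodes the resection factor CtIP. Of 9 mediators, 2 (22.2%) were lower, beside 13.4% of all tested genes. SEM1, a small acidic protein that binds BRCA2, stood at 490 and 221 CPM, and SWSAP1 at 4.11 and 2.21 CPM. The correction moved SEM1 to a log2 fold of 0.09 and SWSAP1 to −0.46, so neither was lower after it.

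Of 13 strand exchange partners, 3 (23.1%) were lower, beside 13.4% of all tested genes. MND1, a factor of meiotic recombination, stood at 44.3 and 13.0 CPM. RAD54B, a relative of RAD54L, stood at 11.4 and 4.87 CPM, but 59.1% of its exon bases are shared with FSBP on the same strand, so its reads are uncertain. USP1, the deubiquitinase that works with a RAD51AP1-binding cofactor, stood at 178 and 102 CPM, and that cofactor, WDR48, at 26.9 and 31.1 CPM. After the correction MND1 (−0.96), RAD54B (−0.81) and USP1 (−0.80) were still lower. Of 5 measured antagonists of strand exchange, 1 (20%) was lower, PARPBP, at 30.6 and 12.9 CPM. Of 8 measured junction processing genes, 0 passed 1.5-fold, beside 13.4% lower and 7.73% higher among all tested genes. SLX4 (12.8 and 18.7 CPM) and RMI2 (5.56 and 8.41 CPM) had the highest log2 folds of that list. The read ratio of RMI2 was 1.51, but its log2 fold after adding 1 CPM was 0.52, short of the rule.

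**Figure D4:**
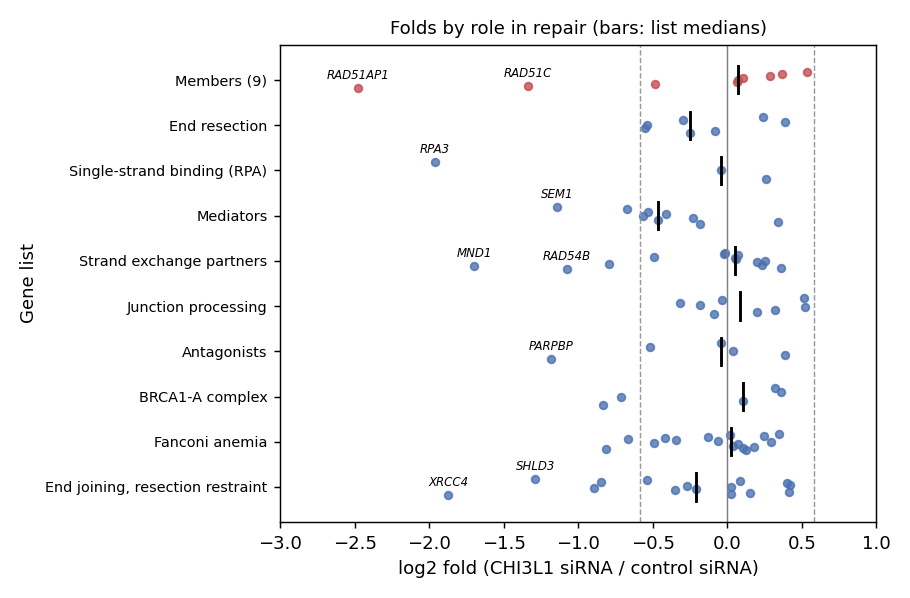
The log2 fold of each tested gene (points) by role in repair, with the list median as a black bar and dashed lines at 1.5-fold. No list has a point to the right of the upper 1.5-fold line, list medians lie between −0.47 and 0.10, and genes at least 2-fold lower are named.

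In 3 lists of related pathways 0 genes were higher, and the counts of lower ones are to be read beside the 13.4% of all tested genes. In the BRCA1-A complex, which holds BRCA1 at ubiquitin marks, ABRAXAS1 (35.5 and 19.5 CPM) and BABAM1 (51.3 and 30.9 CPM) were lower, 2 of 5 (40%), with a list median of 0.10. ABRAXAS1 shares 25.2% of its exon bases with MRPS18C on the opposite strand, which had more reads and was itself lower, at 84.2 and 24.0 CPM. The part of those reads in the value of ABRAXAS1 was not tested. Of 16 Fanconi anemia genes, which repair DNA crosslinks, FANCB (10.1 and 5.33 CPM) and UBE2T (43.8 and 27.3 CPM) were lower (12.5%), and the median log2 fold was 0.03. Of 15 tested genes of end joining and resection restraint, the competing route, 4 (26.7%) were lower and 0 higher, with a median of −0.21. XRCC4, the scaffold of the end-joining ligase, stood at 66.9 and 17.5 CPM, SHLD3 at 6.70 and 2.15 CPM, PAXX at 43.9 and 23.2 CPM and MAD2L2 at 128 and 71.0 CPM. Their transcripts are short, at 1636, 1766, 812 and 1118 nt. Of tested coding genes up to 1000 nt, 52.09% were at least 1.5-fold lower, and of those above 1000 and up to 2000 nt, 23.35%. After the length and GC correction XRCC4 alone of these was lower. SHLD3 shares 17.4% of its exon bases with TRAPPC13 on the same strand, which was lower too, at 41.3 and 17.4 CPM. The kinase subunit gene PRKDC stood at 262 and 351 CPM.

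With 2 libraries, likeness to RAD51AP1 can only be the closeness of log2 folds. Of 200 tested genes in the other lists, the 3 nearest were RPA3 (−1.96), XRCC4 (−1.87) and CDK1 (−1.86), each at least 0.52 above RAD51AP1. CDK1, the kinase that drives entry into mitosis, stood at 449 and 123 CPM.

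Cell cycle genes were read out because many repair genes follow the cycle. The median log2 fold of 35 replication and S phase genes was 0.04. Of these 35, 4 (11.4%) were lower and 0 higher, beside 13.4% and 7.73% of all tested genes. The lower ones were the polymerase epsilon subunit POLE2 (30.1 and 10.7 CPM), the primase subunit PRIM1 (33.1 and 14.4 CPM), ORC6 (37.6 and 23.5 CPM) and RFC3 (32.4 and 21.2 CPM). PRIM1 shares 5.42% of its exon bases with HSD17B6 on the opposite strand, which had 23 and 44 reads. It shares 1.35% with NACA on the same strand, which had 3417 and 4250 reads. Of 22 mitosis genes, CDK1 and TTK (90.7 and 52.4 CPM) were lower (9.09%, beside the same 13.4%) and 0 were higher, and the median was 0.09. The proliferation marker MKI67 stood at 155 and 215 CPM, with a log2 fold of 0.47 and of −0.02 after the correction. In the ATR and CHK1 checkpoint, which stalls the cycle at damaged DNA, ETAA1 (46.0 and 26.9 CPM) was lower. It was 1 of 14 genes (7.14%), again beside 13.4%, and 0 were higher.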

How the data were processed

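RNA was extracted with Trizol and made into libraries with an Illumina TruSeq kit, per the labels' protocols. GRCh38, featureCounts, HISAT2, Trimmomatic, MultiQC and FastQC appear, without roles or versions, in the submitters' processing notes. The authors deposited 1 table of CPM values for both libraries. Strand setting, annotation release and normalisation tool were not given in the sources used here. Dividing by 1 fixed step per library and removing 0.001 turned 100% of values into whole reads (within 0.01 read), which the intervals use. Every gene had at least 6 reads in 1 library.

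Log2 folds use a pseudocount of 1 CPM, which understates low genes. A rule of size, 1.5-fold with no p-value, was applied where the mean reached 1 CPM. Intervals of ratios are 95% Clopper-Pearson intervals, and those of per-kilobase levels are exact 95% Poisson intervals of each count. Symbols were matched for 17134 genes by Ensembl identifier, and coordinates and 1 principal transcript per gene were taken from GENCODE release 29. The correction fitted splines (5 degrees of freedom per term, 36.0% of variance) to 12451 coding genes outside the lists. Python 3.11.15, scipy 1.17.1, patsy 1.0.2 and statsmodels 0.14.6 were used. Read recovery, log2 folds and counting intervals were tested on simulated data that held counting error only. The correction, neighbours, exon overlaps and motif matches were not simulated.

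Members and lists were chosen with earlier results of these data known. Named are all members, CHI3L1, genes past 1.5-fold in each list (at most 4), NUCKS1, E2F1, CDK12, MKI67 and the 3 genes nearest to RAD51AP1 in fold. Others (partners, neighbours, markers, HMGN5, MMP1) were added after their values were seen. 1 gene of the pathway is not reported here.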

Additional observations from a re-analysis of the deposited data

How the results depend on the processing

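Alternatives were pseudocounts of 0.5 and 10 CPM, TMM scaling, centring on the median of genes averaging 50 CPM or more (a shift of 0.10), mean filters of 0 and 10 CPM, a fold of 2, counting intervals, and the length and GC correction. The members stayed at 2 lower and 0 higher under each of these. RAD51AP1 moved to a log2 fold of −1.91 and RAD51C to −1.08 at a pseudocount of 10 CPM, and to −1.84 and −1.17 after the correction, which moved BRCA1 to −0.17. Of the other homologous recombination genes 13 (28.9%) were lower after centring, against 7, beside 17.4% of all genes. After the correction 3 of 45 were higher, against 0, beside 6.61% of all corrected genes. These 3 were PSMC3IP, RMI1 and RMI2, and RTEL1 (−0.79) was newly lower, all named after their values were seen. Among all 14815 genes centring moved the lower from 1988 to 2572 and the higher from 1145 to 686, and the correction gave 864 lower and 837 higher of 12660. After the correction the lower genes were XRCC4 alone in the end joining list, POLE2 and PRIM1 in the replication list, CDK1 in the mitosis list and ABRAXAS1 in the BRCA1-A list. In the Fanconi anemia list it was FANCG (−0.59) in place of FANCB and UBE2T, and in the checkpoint list 0. UBE2C (0.61) in the mitosis list and BAX (0.59) among p53 targets were then higher. No paired analysis was possible because there is 1 library per group. At the lowest depth among the members, PALB2 with 152 reads, the interval spanned 1.01 to 1.54.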

Other observations

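Regulators of genes that peak in S phase were also read out. Of 22 genes in a list of E2F and DREAM regulators, 2 (9.09%) were at least 1.5-fold higher and 2 (9.09%) lower. The shares of all tested genes were 7.73% and 13.4%. The median log2 fold of the list was 0.28. The list also held CDK12, its relative CDK13 and their cyclin CCNK, which are not subunits of the E2F or DREAM complexes. The repressor gene E2F8 stood at 15.7 CPM in the control library and 24.9 CPM in the knockdown library, and RBL1, which encodes the pocket protein p107, at 13.9 and 21.9 CPM. LIN9, a core subunit of the complexes, stood at 23.8 and 9.75 CPM, a ratio of 0.409, and LIN52 at 25.4 and 14.9 CPM. LIN9 kept a log2 fold of −1.17 after the length and GC correction, LIN52 moved to −0.36 and was no longer lower, and the higher 2 did not pass 1.5-fold after it (E2F8 0.47, RBL1 0.54). The activator gene E2F1 stood at 47.0 and 57.2 CPM, a log2 fold of 0.28. CDK12, a kinase that long DNA repair genes need for full-length transcription, stood at 35.3 and 44.9 CPM, with a log2 fold of 0.34 and of −0.01 after the correction.

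Of 15 targets of p53, BTG2 alone passed 1.5-fold and was lower, at 1.90 and 0.718 CPM (30 and 14 reads). That is 6.67% of the list, beside 13.4% of all tested genes. After the correction BAX (84.4 and 87.0 CPM) was higher, with a log2 fold of 0.59. The median log2 fold of the list was 0.01, and CDKN1A, the cell cycle inhibitor p21, stood at 22.9 and 23.3 CPM.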
